A study of Homo sapiens with 24 samples.

Results

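Transcripts of 10 inflammatory cytokines and colony-stimulating factors (IL6, LIF, IL11, IL1A, IL1B, IL24, IL32, CSF2, CSF3 and TNF) were followed in 24 RNA sequencing libraries of the breast cancer lines MDA-MB-436 and MDA-MB-231. The members are a list of names that was chosen with earlier results of these data known. All 10 of 10 were found among the 60675 Ensembl genes of the count tables. Both lines are triple-negative, that is, they lack the oestrogen and progesterone receptors and amplified HER2. Each line had 3 libraries from cells expressing an shRNA (a short hairpin RNA that silences a matching transcript) against MDM2 and 3 with a non-targeting shRNA. It also had 3 libraries from cells given the MDM2 PROTAC YX-2-30 and 3 from cells given DMSO, its vehicle. MDM2 is an E3 ubiquitin ligase best known for keeping p53 low. A PROTAC is a small molecule that tethers its target to such a ligase, which marks the target for destruction. The comparisons ask how the transcripts differ when MDM2 is targeted, in each line. All groups shared 1 growth medium (DMEM with serum). The labels used here give no hairpin sequence, dose, duration or clone. Nor do they state that libraries within a group are separate cultures, and p-values here measure only the spread between libraries, which may be technical.

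Cytokines are secreted proteins that carry signals between cells. IL6, LIF and IL11 bind receptors that share the subunit gp130 (IL6ST) and act through JAK kinases and STAT3. IL1A, IL1B and TNF bind receptors that switch on NF-kB, a factor that in turn drives many cytokine genes, and CSF2 (GM-CSF) and CSF3 (G-CSF) promote the growth of myeloid cells. Carcinoma cells can make several of them. Many cytokine transcripts are short-lived, because proteins such as ZFP36 bind AU-rich stretches in their 3′ untranslated regions (3′ UTRs).

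Depth ran from 33.41 M to 174.7 M counts per library (M, 1000000 counts), with a median of 64.02 M. Levels are given as CPM, the count per 1000000 of a library's scaled total. Changes are log2 ratios ± standard error from edgeR's quasi-likelihood test, with Benjamini-Hochberg adjustment over all genes tested and a threshold of 0.05. MDM2 transcript in MDA-MB-436 was 14.7, 28.0 and 26.8 CPM in libraries labelled MDM2 shRNA and 21.5, 29.9 and 24.2 CPM in non-targeting libraries. In MDA-MB-231 it was 24.8, 23.8 and 30.9 CPM in libraries labelled MDM2 shRNA and 19.97, 22.8 and 11.4 CPM in non-targeting libraries. A fall of the hairpin's target was thus not detected in MDA-MB-436 (-0.11 ± 0.22, adjusted p = 0.78) or in MDA-MB-231 (0.55 ± 0.24, adjusted p = 0.137), and directions below are those of the libraries as labelled. With the PROTAC, which acts on the protein, MDM2 transcript changed by -0.61 ± 0.22 in MDA-MB-436 and 0.26 ± 0.24 in MDA-MB-231 without passing (adjusted p = 0.0573 and 0.513). The arms of a line were also close to each other. In MDA-MB-436, pairs of 1 MDM2 shRNA and 1 PROTAC library differed by a median of 19.1 times counting noise, pairs of replicates by 11.6 times and pairs of 1 MDM2 shRNA and 1 non-targeting library by 91 times. In MDA-MB-231 the corresponding medians were 10.8, 11 and 42.6 times. A direct test of MDM2 shRNA against PROTAC libraries called 1 of 22663 genes in MDA-MB-436 (0.00441%) and 3 of 20675 in MDA-MB-231 (0.0145%), none of them a member. Non-targeting against DMSO libraries called 4 genes in MDA-MB-436 (0.0176%) and 0 in MDA-MB-231 in edgeR. Genes with an unadjusted p under 0.05 in that test numbered 2579 in MDA-MB-436 (11.4%) and 903 in MDA-MB-231 (4.37%). One library stood apart, PROTAC replicate 3 of MDA-MB-436, which was also the shallowest and differed from its own replicates by up to 42.9 times counting noise. PROTAC replicates 1 and 2 of that line also differed from each other by 28 times. Without replicate 3 the same number of members, 8 of 10, was called in its comparison, with IL11 at 1.95, IL32 at 0.77 and LIF at -0.61. The arms are therefore given side by side, and neither is read as a repeat of the other.

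In control cells the lines held different cytokine transcripts. IL1A, IL1B, IL32, CSF3 and IL6 transcripts were abundant in MDA-MB-436 and scarce in MDA-MB-231, LIF was high in both, and IL11 led in MDA-MB-231. All 10 members differed between the control libraries of the lines, where 66.8% of all genes did. Per kilobase of exon, non-targeting libraries of MDA-MB-436 held 110 ± 7.19 CPM of IL1B, 107 ± 6.06 of IL1A, 63.3 ± 3.50 of IL32 and 45.1 ± 1.63 of LIF (SD, n = 3 for each). On the same scale they held 38.2 ± 6.90 of CSF3, 31.9 ± 5.84 of IL6, 8.41 ± 0.928 of IL11, 0.306 ± 0.176 of CSF2, 0.139 ± 0.0298 of TNF and 0.0671 ± 0.0248 of IL24. IL1A and IL1B did not differ there beyond their spread, and neither did CSF3 and IL6. Non-targeting libraries of MDA-MB-231 held 52.4 ± 2.36 CPM per kilobase of IL11, 23.2 ± 0.378 of LIF and 1.42 ± 0.144 of CSF2. Their other 7 members were under 1 CPM per kilobase, led by IL24 at 0.599 ± 0.207 and ending with TNF.

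**Figure D1:**
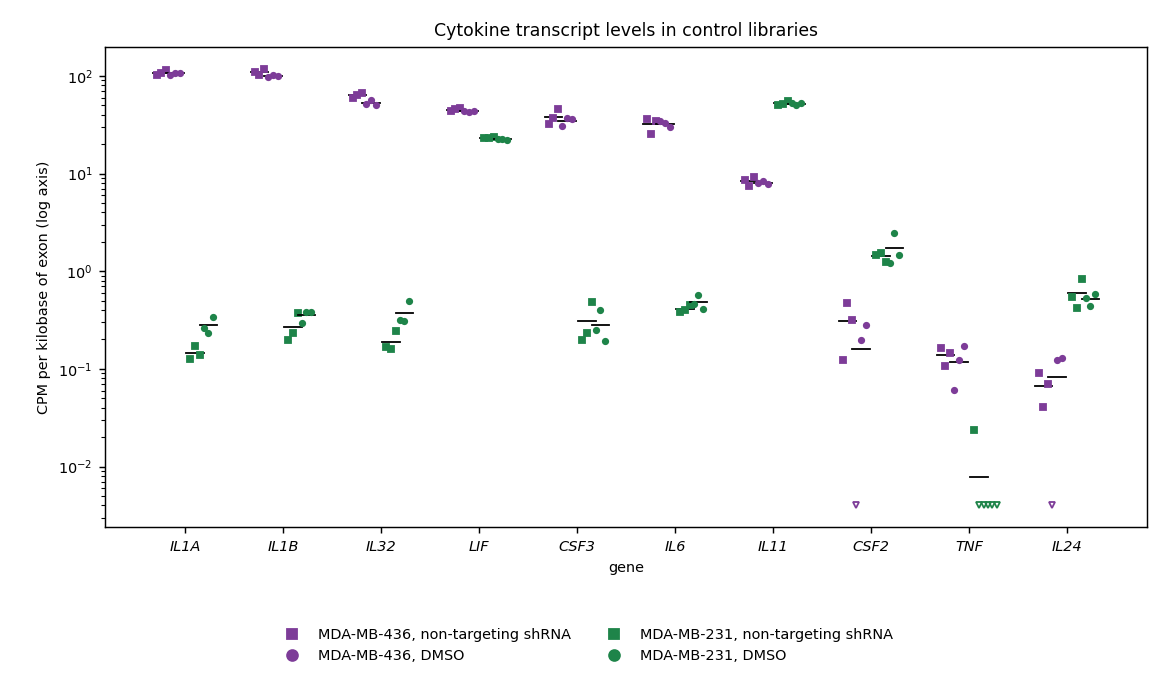
Level of each member in the 12 control libraries, in CPM per kilobase of exon (log axis), with squares for the non-targeting shRNA, circles for DMSO and a bar at each group's mean. Open triangles near the axis are libraries with 0 counts. IL1A, IL1B, IL32, CSF3 and IL6 lie far higher in MDA-MB-436 (purple) than in MDA-MB-231 (green), and IL11, CSF2 and IL24 lie lower.

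As a fold between the 6 control libraries of MDA-MB-436 and the 6 of MDA-MB-231, IL1A was 526-fold higher (95% interval 422 to 655), IL1B 344-fold, IL32 217-fold, CSF3 127-fold, IL6 72.9-fold and LIF 1.94-fold higher in MDA-MB-436. IL24 was 7.24-fold, CSF2 6.82-fold and IL11 6.34-fold lower in MDA-MB-436. The largest adjusted p among these 9 was 3.27e-05, for IL24 in edgeR's test over all 24 libraries. The folds pool 2 control groups, which in MDA-MB-231 did not overlap for IL1A and IL32. There IL1A averaged 0.308 CPM with the non-targeting shRNA and 0.596 CPM with DMSO, and IL32 0.61 and 1.20 CPM. No member was called between these 2 groups, but a fold against either alone would differ. TNF was above 0 in all 6 control libraries of MDA-MB-436 and had 4 counts in 1 of 6 in MDA-MB-231, so no fold is given for it. Each line is 1 line, so these are differences between MDA-MB-436 and MDA-MB-231 and not between kinds of tumour.

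With treatment, at least 5 members passed the test in every comparison. The list was chosen with earlier results of these data known, so its counts and medians beside all genes are a description and not a test. In MDA-MB-436, 6 of 10 rose and 2 fell in MDM2 shRNA libraries against non-targeting libraries, where 30.4% of 22663 genes were called (16% higher, 14.4% lower). With the PROTAC against DMSO there, 6 rose and 2 fell as well, against 32.4% of all genes (17.3% higher, 15.1% lower). In MDA-MB-231, 4 of 9 tested members rose and 1 fell in each arm. The share of all 20675 genes called there was 22.7% with MDM2 shRNA (11.1% higher, 11.6% lower) and 22.6% with the PROTAC (11.1% higher, 11.5% lower). Groups did not overlap for 8 of 10 members with MDM2 shRNA (51.3% of all genes) and 9 of 10 with the PROTAC (41.6%) in MDA-MB-436, and for 7 of 9 in each arm of MDA-MB-231 (39% and 39.1%). Leaving out 1 library at a time left 6 or 7 calls with MDM2 shRNA in MDA-MB-436. IL11, IL32 and CSF2 rose in all 4 comparisons, and LIF fell in all 4. The median member change was 0.89 with MDM2 shRNA and 0.74 with the PROTAC in MDA-MB-436, and 0.89 and 0.85 in MDA-MB-231, while the median over all tested genes lay between -0.006 and 0.043. In bulk RNA, a change in the share of cells that make a transcript and a change in the amount per cell cannot be told apart.

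**Figure D2:**
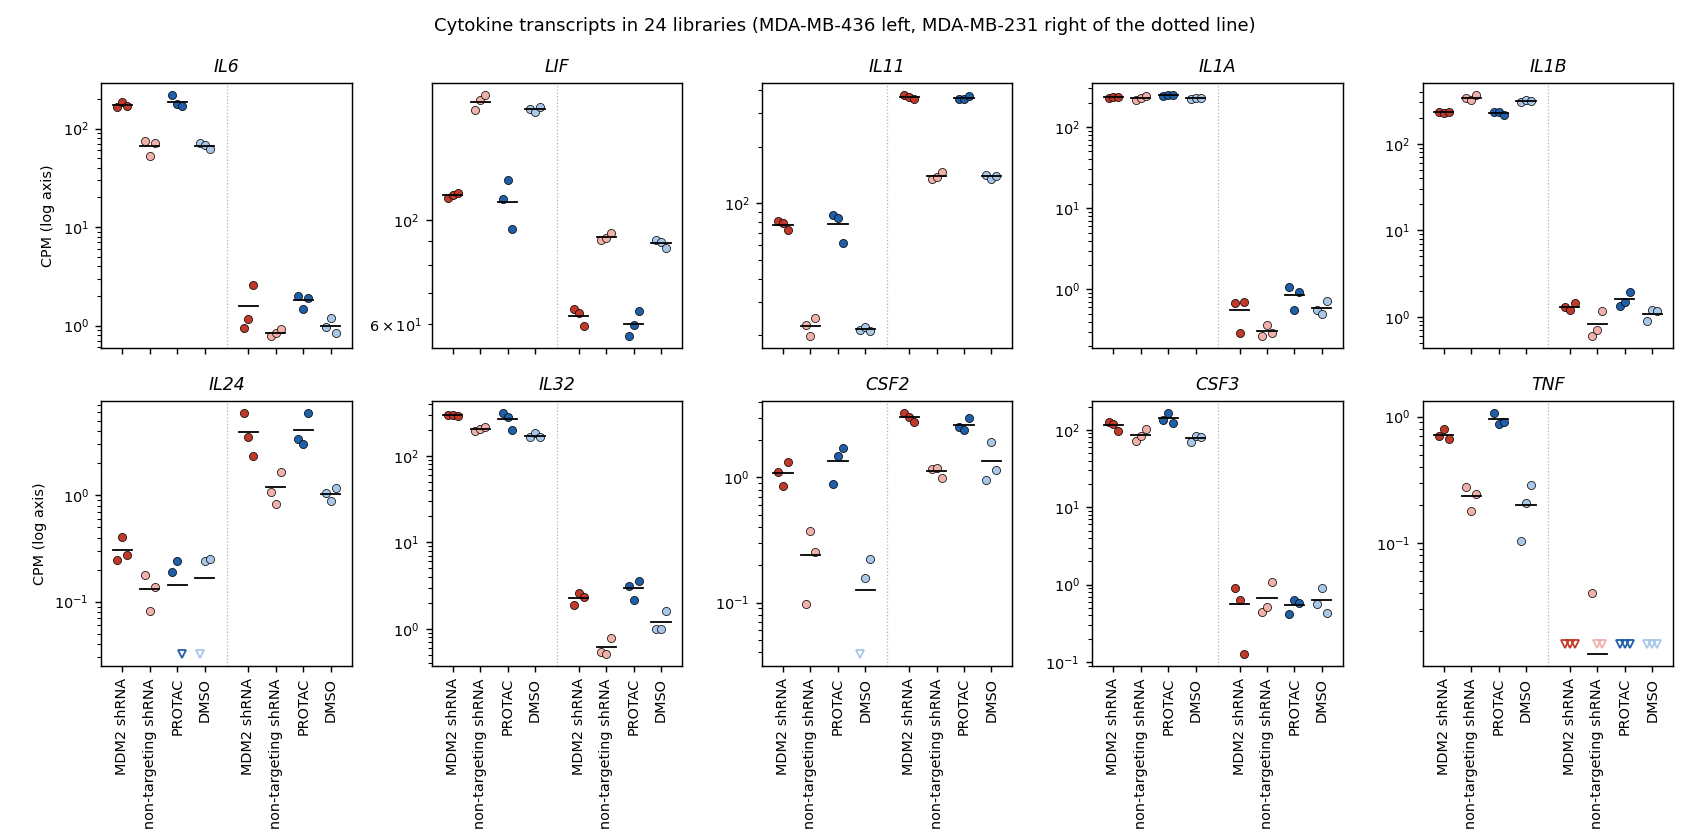
CPM of each member in every library (log axis), 3 points a group with a bar at the mean, MDA-MB-436 left and MDA-MB-231 right of the dotted line. Open triangles mark libraries with 0 counts. IL11 lies higher and LIF lower in all treated groups of both lines, and TNF is at 0 in 11 of 12 libraries of MDA-MB-231.

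IL11 (chr19:55364389-55370463, minus strand, GRCh38), a gp130 cytokine known for its roles in bone and in fibrosis, gave the tightest rise. In MDA-MB-436 it was at 80.8, 78.5 and 72.3 CPM in MDM2 shRNA libraries and 22.7, 19.9 and 24.8 CPM in non-targeting libraries. PROTAC libraries there held 87.05, 84.2 and 61.7 CPM, against 21.3, 22.2 and 21.1 CPM with DMSO. Every treated library lay above every control library. The rise was 3.48-fold with MDM2 shRNA (1.80 ± 0.11, adjusted p = 6.3e-07) and 3.58-fold with the PROTAC (1.84 ± 0.11, adjusted p = 5.01e-07). In MDA-MB-231, from a higher level, it was at 374, 366 and 356 CPM in MDM2 shRNA libraries and 135, 138 and 147 CPM in non-targeting libraries. PROTAC libraries held 356, 356 and 370 CPM, and DMSO libraries 142, 134 and 140 CPM. The groups again did not overlap, and the rises were 2.61-fold (1.38 ± 0.04, adjusted p = 1.34e-08) and 2.59-fold (1.37 ± 0.04, adjusted p = 1.5e-08).

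The IL11 promoter is shown because the gene rose in every comparison. It is the 250 bases before the RefSeq start (GRCh38.p14, chr19:55370464-55370713, minus strand), outside the exons of the gene, with an AP-1 motif in capitals at -96 to -90.
IL11 promoter: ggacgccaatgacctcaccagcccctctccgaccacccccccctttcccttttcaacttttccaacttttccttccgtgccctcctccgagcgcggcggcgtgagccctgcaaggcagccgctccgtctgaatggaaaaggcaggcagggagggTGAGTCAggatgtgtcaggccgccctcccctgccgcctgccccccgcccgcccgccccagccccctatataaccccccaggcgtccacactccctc
The motif searched for AP-1 was TGANTCA (N is any base), which reads the same on both strands and is held by 6.57% of 35116 promoters of that length. Also searched on both strands were GGG and CC with any 5 bases between them for NF-kB (54.4% of promoters), TTGCNNAA for C/EBP (9.05%) and TTCNNNGAA for STAT (6.57%), and these letters are not in this window.

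LIF (chr22:30240447-30246851, minus strand, GRCh38), the leukaemia inhibitory factor, moved the other way. In MDA-MB-436 it was at 112, 113 and 114 CPM in MDM2 shRNA libraries and 172, 180 and 185 CPM in non-targeting libraries. In PROTAC libraries it was at 111, 122 and 95.8 CPM, against 173, 170 and 175 CPM with DMSO. Its groups did not overlap in either arm, and it fell by 0.65 ± 0.06 with MDM2 shRNA and by 0.66 ± 0.06 with the PROTAC on the log2 scale (adjusted p = 1.68e-05 and 1.32e-05). In MDA-MB-231 it was at 64.5, 63.2 and 59.4 CPM in MDM2 shRNA libraries and 90.8, 91.7 and 93.7 CPM in non-targeting libraries. PROTAC libraries held 56.6, 59.6 and 63.8 CPM and DMSO libraries 90.6, 89.9 and 87.05 CPM. It fell there by 0.56 ± 0.05 and 0.57 ± 0.05 (adjusted p = 2.49e-05 and 2.06e-05), also without overlap. The antisense genes LIF-AS1 and AC004264.1 share 92 and 175 of its exon bases on the other strand. Whether counting used strand is not stated in the sources used here, so reads in those bases cannot be assigned.

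IL6 (chr7:22725884-22732002, plus strand, GRCh38), the best known gp130 cytokine and a driver of the acute-phase response, rose in MDA-MB-436. It was at 164, 187 and 171 CPM in MDM2 shRNA libraries and 74.7, 52.2 and 71.2 CPM in non-targeting libraries. PROTAC libraries held 218, 177 and 169 CPM and DMSO libraries 71.3, 68.9 and 61.7 CPM. Treated libraries lay clear of their controls, with rises of 2.67-fold (1.42 ± 0.13, adjusted p = 1.22e-05) and 2.78-fold (1.48 ± 0.13, adjusted p = 8.69e-06). In MDA-MB-231 the transcript was near 1 CPM, at 0.937, 1.16 and 2.61 CPM in MDM2 shRNA libraries and 0.785, 0.835 and 0.923 CPM in non-targeting libraries. With the PROTAC it was at 2.02, 1.48 and 1.90 CPM, against 0.963, 1.18 and 0.847 CPM with DMSO. The groups did not overlap, but neither change passed the test (0.89 ± 0.34, adjusted p = 0.0916, and 0.85 ± 0.34, adjusted p = 0.102). Without MDM2 shRNA replicate 3, the library at 2.61 CPM, the first change was 0.31 (adjusted p = 0.445), and without MDM2 shRNA replicate 1 it was 1.15 and passed (adjusted p = 0.0319). The PROTAC change of IL6 passed when only its 6 libraries were fitted (0.85, adjusted p = 0.0383). The antisense gene AC073072.1 shares 428 of the 2069 exon bases of IL6 on the other strand, which is 20.7%.

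The starts of IL6 and IL32 are annotated differently in RefSeq and GENCODE, and 53 and 106 of the 250 bases before their RefSeq starts lie in GENCODE exons of the genes. Only 30 bases around 1 NF-kB match of each are therefore printed, for IL6 because it rose in MDA-MB-436 and for IL32 because it rose in all 4 comparisons. The windows hold other NF-kB matches too, at -112 to -103 in IL6 and at -180 to -171 and -68 to -59 in IL32. Another RefSeq start is listed for IL32. All 250 bases before that start lie in GENCODE exons of the gene, with 1 NF-kB match at -202 to -193 from it. The IL6 stretch is chr7:22727117-22727146 (plus strand, GRCh38.p14, motif at -73 to -64 from the RefSeq start), and the IL32 stretch is chr16:3065294-3065323 (plus strand, motif at -99 to -90). Capitals mark the NF-kB motif given above, and in both a copy on the minus strand overlaps it, shifted by 1 base.
IL6 stretch: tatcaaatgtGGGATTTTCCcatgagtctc
IL32 stretch: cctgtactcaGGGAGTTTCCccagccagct
IL6 also held a C/EBP match, TTGCACAA, at -155 to -148. These are matches of letters, and 54.4% of all promoters hold the NF-kB one.

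IL32 (chr16:3065297-3082192, plus strand, GRCh38) is a cytokine found in humans and other primates but not in mice, known to induce TNF in monocytes. In MDA-MB-436 it was at 299, 299 and 287 CPM in MDM2 shRNA libraries and 192, 203 and 214 CPM in non-targeting libraries. In PROTAC libraries it was at 314, 285 and 200 CPM, against 166, 182 and 163 CPM with DMSO. The lowest PROTAC library, at 200 CPM, still lay above all DMSO libraries, and the rises were 1.47-fold (0.56 ± 0.11, adjusted p = 0.00301) and 1.55-fold (0.63 ± 0.11, adjusted p = 0.00123). In MDA-MB-231 it was at 1.91, 2.59 and 2.33 CPM in MDM2 shRNA libraries and 0.537, 0.516 and 0.777 CPM in non-targeting libraries. PROTAC libraries held 3.15, 2.17 and 3.61 CPM and DMSO libraries 1.00, 1.00 and 1.60 CPM. The rises were 3.74-fold (1.90 ± 0.27, adjusted p = 0.000525) and 2.46-fold (1.30 ± 0.26, adjusted p = 0.00475), again without overlap. Of the exon bases of IL32, 129 are shared with the small nuclear RNA pseudogene RNU1-125P on the same strand.

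The interleukin-1 genes, whose products start inflammatory signalling through IL1R1, passed as higher in neither line in the main fits by line. They lie near each other on the minus strand of chromosome 2, IL1A at chr2:112773915-112784590 and IL1B at chr2:112829751-112836903 (GRCh38). IL1B in MDA-MB-436 was at 235, 227 and 231.1 CPM in MDM2 shRNA libraries and 340, 318 and 363 CPM in non-targeting libraries. In PROTAC libraries it was at 235, 235 and 217 CPM, against 302, 318 and 310 CPM with DMSO. It fell in both arms there without overlap, by 0.54 ± 0.05 (adjusted p = 1.22e-05) and by 0.44 ± 0.05 (adjusted p = 5.01e-05). In MDA-MB-231 it was at 1.31, 1.19 and 1.46 CPM in MDM2 shRNA libraries and 0.606, 0.714 and 1.17 CPM in non-targeting libraries. PROTAC libraries held 1.35, 1.49 and 1.95 CPM and DMSO libraries 0.907, 1.198 and 1.19 CPM. Treated libraries lay above controls at these low levels, but the test was not passed (0.68 ± 0.26, adjusted p = 0.0963, and 0.54 ± 0.26, adjusted p = 0.177). The first of these passed without non-targeting replicate 3 (0.99, adjusted p = 0.0199), and in one fit of all 24 libraries both IL1B changes passed (adjusted p = 0.00966 and 0.0366).

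IL1A passed in neither arm of MDA-MB-436, at 230, 236 and 233 CPM in MDM2 shRNA libraries and 216, 225 and 241 CPM in non-targeting libraries. In PROTAC libraries it was at 244, 246 and 245 CPM, against 219, 229 and 226 CPM with DMSO. Neither change passed (0.05 ± 0.05 with a 95% interval of -0.06 to 0.17, and 0.12 ± 0.05 with an interval of 0.01 to 0.24, adjusted p = 0.515 and 0.0975), although the PROTAC libraries did not overlap with DMSO. Both passed without scaling beyond library totals (0.23 and 0.29, adjusted p = 0.0058 and 0.00136). In that setting the median change of all genes in MDA-MB-436 was 0.22 and 0.21, against 0.04 and 0.043 with TMM scaling. With TMM scaling and a filter of 1 CPM, the PROTAC change of IL1A there passed narrowly (0.13, adjusted p = 0.0472 in edgeR). In MDA-MB-231 IL1A was between 0.268 and 1.07 CPM, and neither change passed (0.86 ± 0.39 with MDM2 shRNA, adjusted p = 0.146, and 0.52 ± 0.37 with the PROTAC, adjusted p = 0.385). The MDM2 shRNA change of IL1A there passed without MDM2 shRNA replicate 2 (1.17, adjusted p = 0.0363) and in the fit of all 24 libraries (0.88, adjusted p = 0.0291).

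CSF2 (chr5:132073790-132076170, plus strand, GRCh38), which encodes GM-CSF, was a rare transcript with a rise in every comparison. MDA-MB-436 cells held it at 1.10, 0.857 and 1.33 CPM in MDM2 shRNA libraries and 0.0976, 0.374 and 0.251 CPM in non-targeting libraries. With the PROTAC it was at 0.882, 1.47 and 1.70 CPM, against 0, 0.156 and 0.222 CPM with DMSO, where the 3 libraries held 23 counts in all. Every treated library lay above its controls, and the rises were 2.19 ± 0.68 (adjusted p = 0.0329) and 3.36 ± 0.74 (adjusted p = 0.00498). The first call was lost without any 1 of 5 of its 6 libraries (adjusted p = 0.0539 to 0.111), with the log2 change between 1.84 and 2.33. In MDA-MB-231 it was at 3.28, 3.02 and 2.75 CPM in MDM2 shRNA libraries and 1.16, 1.2 and 0.988 CPM in non-targeting libraries. PROTAC libraries held 2.52, 2.42 and 2.99 CPM and DMSO libraries 0.949, 1.93 and 1.15 CPM. The rises were 2.70-fold (1.43 ± 0.24, adjusted p = 0.00149) and 1.97-fold (0.98 ± 0.24, adjusted p = 0.013), without overlap. The PROTAC call in MDA-MB-231 was lost without DMSO replicate 3 (0.87, adjusted p = 0.055). It was also lost when only its 6 libraries were fitted (0.98, adjusted p = 0.0558).

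The CSF2 promoter is shown as that of the member with the largest rise in MDA-MB-436. It is the 250 bases before the RefSeq start (GRCh38.p14, chr5:132073539-132073788, plus strand). Capitals mark a STAT match at -190 to -182 and an NF-kB match on the minus strand at -85 to -76.
CSF2 promoter: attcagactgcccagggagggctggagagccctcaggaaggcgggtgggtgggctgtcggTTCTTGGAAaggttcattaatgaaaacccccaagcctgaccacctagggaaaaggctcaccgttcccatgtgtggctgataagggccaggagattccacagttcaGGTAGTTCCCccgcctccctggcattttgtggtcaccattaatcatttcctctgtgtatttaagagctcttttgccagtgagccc
Neither AP-1 nor C/EBP letters are in this window. Promoters of 8 of the 10 members are in the RefSeq table. Among those not printed, IL1A has 2 listed starts with overlapping windows, with 1 AP-1 match before one and 2 before the other. The windows share 1 of these sites. The promoter of IL1B held 1 C/EBP and 1 STAT match, that of TNF 1 NF-kB match and that of IL24 0 matches of any motif searched. Of the 250 bases, 97 and 148 in the IL1A windows and 124 in the IL1B window lie in GENCODE exons of these genes.

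CSF3 (chr17:40015361-40017813, plus strand, GRCh38), which encodes G-CSF, the growth factor of neutrophils, rose in MDA-MB-436. It was at 127, 120 and 97.7 CPM in MDM2 shRNA libraries and 70.8, 82.7 and 101 CPM in non-targeting libraries, and these groups overlapped. With the PROTAC it was at 134, 165 and 122 CPM, against 68.8, 82.6 and 80.7 CPM with DMSO, without overlap. The rises were 1.37-fold (0.46 ± 0.14, adjusted p = 0.0254) and 1.80-fold (0.85 ± 0.14, adjusted p = 0.000632). The MDM2 shRNA call was lost without any 1 of 4 of its 6 libraries (0.34 to 0.44, adjusted p = 0.0827 to 0.117). In MDA-MB-231 CSF3 was between 0.129 and 1.08 CPM in all 12 libraries, its groups overlapped, and neither change passed (-0.28 ± 0.59, adjusted p = 0.798, and -0.21 ± 0.59, adjusted p = 0.858).

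TNF (chr6:31575567-31578336, plus strand, GRCh38), the founding ligand of its family, was measured only at low levels. In MDA-MB-436 it was at 0.696, 0.794 and 0.664 CPM in MDM2 shRNA libraries and 0.277, 0.179 and 0.245 CPM in non-targeting libraries. With the PROTAC it was at 1.07, 0.873 and 0.904 CPM, against 0.103, 0.208 and 0.285 CPM with DMSO. Treated libraries lay above controls in both arms, and the rises were 3.09-fold (1.63 ± 0.37, adjusted p = 0.00585) and 4.68-fold (2.23 ± 0.38, adjusted p = 0.000915). In one fit of all 24 libraries the MDM2 shRNA rise had an adjusted p of 0.0819. In MDA-MB-231 TNF had 0 counts in 11 of 12 libraries and 4 in the other, a non-targeting library, so it was not tested there. A count of 0 over the 3 MDM2 shRNA libraries of that line allows a level of up to 0.0164 CPM (3 counts over the group, counting error only).

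IL24 (chr1:206897443-206904139, plus strand, GRCh38), an IL-10 family cytokine known for its effects on keratinocytes and tumour cells, rose in MDA-MB-231. It was at 5.93, 3.53 and 2.33 CPM in MDM2 shRNA libraries and 1.08, 0.835 and 1.64 CPM in non-targeting libraries. With the PROTAC it was at 3.34, 3.04 and 5.90 CPM, against 1.05, 0.876 and 1.16 CPM with DMSO. The treated libraries differed among themselves by more than 1.5 times and still lay above all controls. The rises were 3.32-fold (1.73 ± 0.37, adjusted p = 0.00718) and 3.96-fold (1.99 ± 0.38, adjusted p = 0.00332). In MDA-MB-436 no library passed 0.405 CPM, and neither change passed (1.22 ± 1.11, adjusted p = 0.468, and -0.19 ± 1.14, adjusted p = 0.92).

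**Figure D3:**
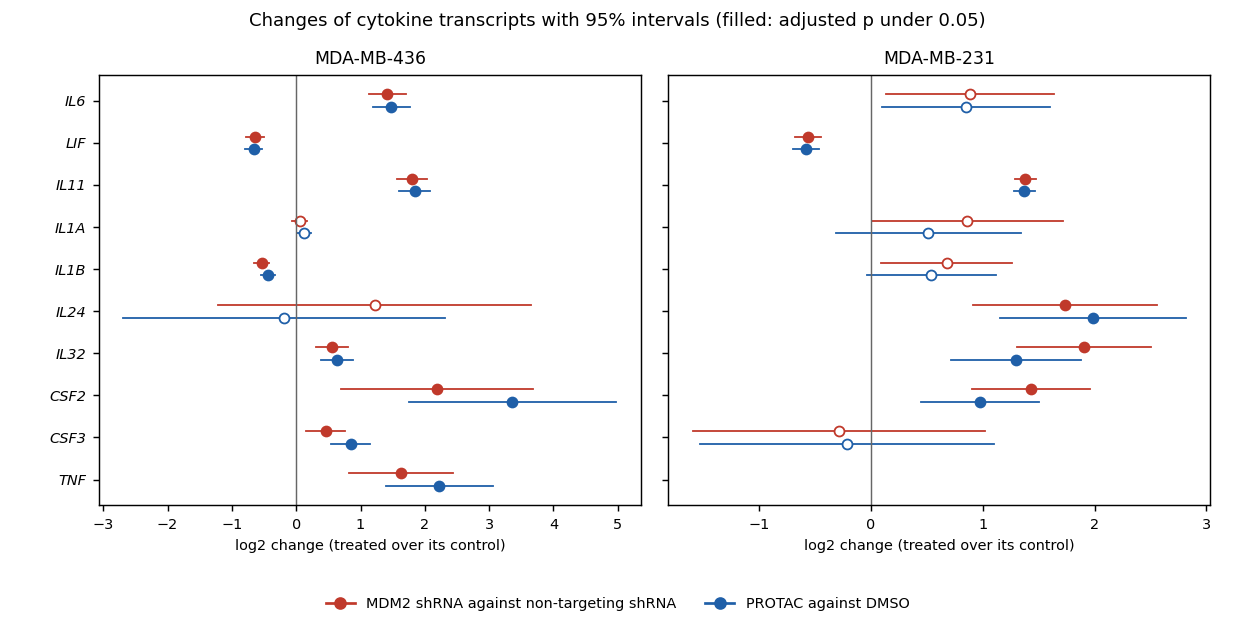
Log2 change of each member (treated over its own control) with its 95% interval, in MDA-MB-436 (left) and MDA-MB-231 (right), red for MDM2 shRNA and blue for the PROTAC. Filled points passed an adjusted p of 0.05. The red and blue intervals of each member overlap, IL1B lies below 0 in MDA-MB-436 and above 0 in MDA-MB-231, and the lines have different axes.

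No difference between the hairpin and PROTAC arms in the size of a member's change was detected. Taking the change with MDM2 shRNA from that with the PROTAC, edgeR called none of 10 members in MDA-MB-436 (1 of 22663 genes, 0.00441%) and none of 9 in MDA-MB-231 (1 of 20675 genes, 0.00484%). No member had an unadjusted p under 0.05 in it in edgeR, and DESeq2 and limma voom called none either. For several of the abundant members the intervals of the difference were narrow. In MDA-MB-436 they were -0.21 to 0.18 for LIF, -0.29 to 0.38 for IL11 and -0.35 to 0.47 for IL6. In MDA-MB-231 they were -0.18 to 0.15 for LIF and -0.14 to 0.12 for IL11. CSF3 in MDA-MB-436 was less bounded, with a difference of 0.39 and an interval of -0.04 to 0.82 (unadjusted p = 0.0693 in edgeR). For rare transcripts the intervals were wide, at -1.02 to 3.37 for CSF2 and -4.89 to 2.07 for IL24 in MDA-MB-436. Differences of several fold would not have been detected for these.

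Between the lines, IL1B, IL11, IL32 and CSF2 differed in their change in at least 1 arm. The effect in MDA-MB-436 minus that in MDA-MB-231 was called for 4 of 10 members with MDM2 shRNA (19.7% of 24719 genes) and 3 of 10 with the PROTAC (22.3%). For IL1B it was -1.26 ± 0.22 with MDM2 shRNA and -0.98 ± 0.22 with the PROTAC (adjusted p = 0.000328 and 0.00225). For IL32 it was -1.37 ± 0.29 with MDM2 shRNA (adjusted p = 0.00151). In limma voom that difference was -1.40 and did not pass (adjusted p = 0.0978). With the PROTAC, -0.65 ± 0.27 did not pass (adjusted p = 0.0933). The IL32 controls of the 2 arms did not overlap in MDA-MB-231, at 0.516 to 0.777 CPM in non-targeting and 1.00 to 1.60 CPM in DMSO libraries. Treated libraries there averaged 2.28 CPM with MDM2 shRNA and 2.98 CPM with the PROTAC. The part of the control levels in the IL32 call was not tested. IL11 rose more in MDA-MB-436 by 0.40 ± 0.13 and 0.48 ± 0.13 (adjusted p = 0.0422 and 0.0136), but the MDM2 shRNA call was lost in 10 of 12 leave-one-out fits (adjusted p = 0.053 to 0.122). CSF2 rose more in MDA-MB-436 with the PROTAC by 2.37 ± 0.74 (adjusted p = 0.0238), a call lost without DMSO replicate 2 of MDA-MB-231 (adjusted p = 0.0699) or PROTAC replicate 2 of that line (adjusted p = 0.0511). The fourth call with MDM2 shRNA was TNF, whose change rests on counts of 0 in MDA-MB-231 and is given no value. LIF was not called, with a line difference of -0.10 ± 0.09 (interval -0.30 to 0.09) with MDM2 shRNA and -0.08 ± 0.09 (interval -0.28 to 0.11) with the PROTAC.

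The members differed in a feature of their transcripts. The AU-rich pentamer ATTTA occurred 25.2 times per kilobase in the 3′ UTR of CSF2, 14.0 times in IL6, 11.3 in TNF, 9.84 in IL1B and 8.20 in CSF3. It occurred 5.56 times in IL11, 4.34 in IL1A, 2.60 in IL24, 2.18 in LIF and not at all in IL32. The median over 18276 protein-coding genes was 1.58 per kilobase and the 95th percentile 6.12. The longer element TTATTTATT was present in 5 members (6 copies in IL11, 5 in TNF, 3 in CSF2, 2 in IL1B and 2 in LIF), against 8.59% of all genes. The densest 30 bases are shown for members that rose in all comparisons (CSF2, IL11), rose in MDA-MB-436 (IL6, TNF) or fell (LIF in both lines, IL1B in MDA-MB-436), with the pentamers in capitals (GRCh38, GENCODE 29 transcripts). In the order printed they lie at chr5:132076076-132076105 (plus strand), chr19:55365943-55365972 (minus strand), chr7:22731741-22731770 (plus strand), chr6:31578006-31578035 (plus strand), chr22:30240522-30240551 (minus strand) and chr2:112829995-112830024 (minus strand).
CSF2: aaaatATTTATTTATTTATTTATTTAagtt
IL11: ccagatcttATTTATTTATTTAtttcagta
IL6: agttaATTTAtgtaagtcatATTTAtattt
TNF: attATTTATTTAttATTTATTTATTTAcag
LIF: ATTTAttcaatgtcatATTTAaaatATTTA
IL1B: cgcttccctATTTATTTATTTAtttgtttg
Rising and falling members both carried repeats of the pentamer, and IL32, which rose in all 4 comparisons, carried none. Stretches of CSF3, which also rose in MDA-MB-436, of IL24, which rose in MDA-MB-231, and of IL1A are not printed.

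Other ligands of the same families moved in part. The counts stand beside shares of all genes called of 30.4% with MDM2 shRNA and 32.4% with the PROTAC in MDA-MB-436 and of 22.7% and 22.6% in MDA-MB-231, and several lie near them. Among 7 other gp130 ligands, 3 were tested in MDA-MB-436, where 2 rose with MDM2 shRNA, and 2 rose and 1 fell with the PROTAC. Of 4 tested in MDA-MB-231, 1 rose in each arm. EBI3, a subunit of the cytokines IL-27 and IL-35, rose in all 4 comparisons (1.94 and 2.02 in MDA-MB-436, 2.08 and 2.36 in MDA-MB-231). Its level in MDA-MB-436 averaged 37.3 ± 1.01 CPM with MDM2 shRNA and 9.82 ± 1.15 CPM with the non-targeting shRNA (SD, n = 3). CLCF1 rose in MDA-MB-436 by 0.73 and 0.74, with adjusted p = 0.00063 and 0.000522 in edgeR, and CNTF fell there with the PROTAC by 1.40 (adjusted p = 0.0348). Of 9 other interleukin-1 family genes, 6 were tested in MDA-MB-436 and 1 in MDA-MB-231, and 1 rose in each arm of each line. IL36G was that gene in MDA-MB-436 (2.73 and 2.99) and IL18 in MDA-MB-231 (0.48 and 0.54). Of 12 TNF superfamily ligands tested in MDA-MB-436, 3 rose and 1 fell in each arm, and of 10 in MDA-MB-231, 3 rose in each arm. They included CD70 (0.95 and 1.30) and LTB (1.19 and 1.42) in MDA-MB-436 and TNFSF9 in MDA-MB-231 (1.26 and 0.98). Of the leukocyte growth factors tested, 5 of 10 rose and 1 fell with MDM2 shRNA in MDA-MB-436, and 6 rose with the PROTAC, while 3 of 7 rose and 1 fell in each arm of MDA-MB-231. KITLG, the stem cell factor, rose in all 4 (1.33 and 0.82, then 1.04 and 1.17 in MDA-MB-231), and IL34 rose in MDA-MB-436 (2.61 and 2.83). CSF1, the macrophage growth factor, fell in MDA-MB-231 by 0.98 and 1.01 and in MDA-MB-436 with MDM2 shRNA by 0.23 (adjusted p = 0.0134), and its change of -0.12 with the PROTAC did not pass (adjusted p = 0.174).

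Receptors and signalling genes held calls in both directions, again beside shares of all genes called of 30.4% and 32.4% in MDA-MB-436 and 22.7% and 22.6% in MDA-MB-231. Of the receptors of the members, 12 were tested in MDA-MB-436, where 1 rose and 3 fell with MDM2 shRNA, and 1 rose and 4 fell with the PROTAC. Of 13 tested in MDA-MB-231, 1 rose with MDM2 shRNA, and 3 rose and 2 fell with the PROTAC. LIFR, the LIF receptor, fell in MDA-MB-436 by 1.00 and 1.30, and OSMR, which pairs with gp130 for oncostatin M, fell there by 0.73 and 0.89. Neither passed in MDA-MB-231, with LIFR at -0.17 and -0.06 and OSMR at 0.11 and 0.17. TNFRSF1B, the second TNF receptor, rose in all 4 comparisons (0.95 and 1.24, then 0.57 and 0.52 in MDA-MB-231). Of 25 genes below the receptors, 5 rose and 10 fell with MDM2 shRNA and 5 rose and 8 fell with the PROTAC in MDA-MB-436, while 7 rose and 4 fell, and 8 rose and 3 fell, in MDA-MB-231. SOCS3, the feedback inhibitor of gp130 signalling, fell in all 4 (by 1.74 and 1.65 in MDA-MB-436 and by 0.50 and 0.44 in MDA-MB-231). IRAK2, a kinase of interleukin-1 signalling, rose in all 4 (1.10 and 1.22, then 0.44 and 0.48), and TRAF2, an adaptor of the TNF receptors, rose in MDA-MB-436 (0.83 and 0.94).

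**Figure D4:**
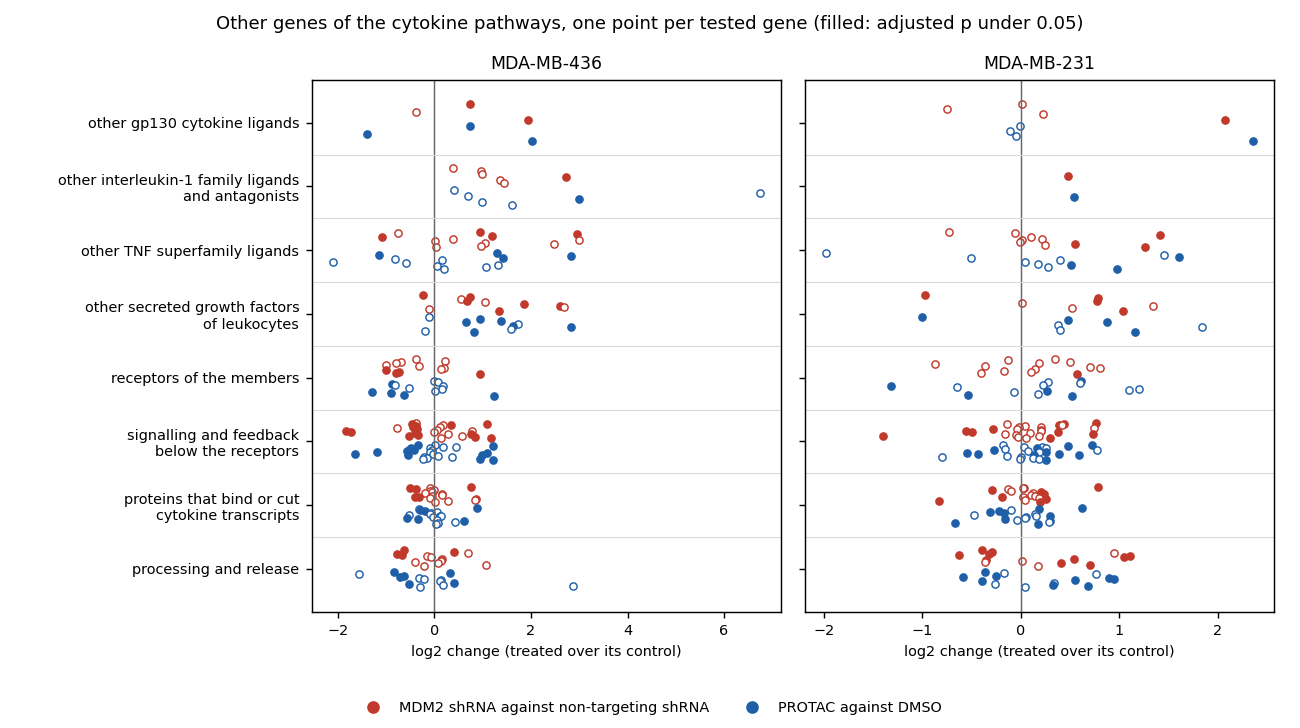
Log2 changes of the other genes of the cytokine pathways by list, 1 point per tested gene, MDA-MB-436 left and MDA-MB-231 right, red for MDM2 shRNA and blue for the PROTAC. Filled points passed an adjusted p of 0.05. Filled points lie on both sides of 0 in the lists of receptors, signalling, transcript-binding and processing genes.

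Of 18 proteins that bind or cut cytokine transcripts, 2 rose and 4 fell in each arm of MDA-MB-436, close to the shares of all genes called there (30.4% and 32.4%). In MDA-MB-231, 5 rose and 3 fell with MDM2 shRNA, and 5 rose and 5 fell with the PROTAC. Of all genes, 22.7% and 22.6% were called in MDA-MB-231, smaller shares than in this list and the next. ZFP36L1, a relative of ZFP36 that destabilises AU-rich transcripts, fell in MDA-MB-231 by 0.84 and 0.67 and did not pass in MDA-MB-436 (0.29 and 0.08). ZC3H12C rose in all 4 (0.87 and 0.61, then 0.26 and 0.30) and YBX1 fell in all 4 (by 0.39 and 0.34, then by 0.19 and 0.16). Of 14 tested genes of cytokine processing and release, 1 rose and 3 fell with MDM2 shRNA and 2 rose and 4 fell with the PROTAC in MDA-MB-436, and 5 rose and 5 fell, and 5 rose and 4 fell, in MDA-MB-231. The calpain genes CAPN1 and CAPN2, whose enzymes cut the IL1A precursor, fell in all 4, CAPN2 by 0.66 and 0.72 in MDA-MB-436 and by 0.63 and 0.58 in MDA-MB-231. CASP4, an inflammatory caspase, rose in MDA-MB-231 (1.05 and 0.95), and its changes of -0.07 and -0.22 in MDA-MB-436 did not pass.

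Markers of other cells were examined beside these changes. The share of all genes called was 30.4% with MDM2 shRNA and 32.4% with the PROTAC in MDA-MB-436. In MDA-MB-231 it was 22.7% and 22.6%. Over 13 leukocyte markers the summed level in MDA-MB-436 was 48.9 to 54.8 CPM with MDM2 shRNA and 28.3 to 35.2 CPM with the non-targeting shRNA, and 50.1 to 58.5 CPM with the PROTAC and 30.5 to 31.2 CPM with DMSO. Of 7 tested markers there, 2 rose and 1 fell with MDM2 shRNA, and 4 rose and 1 fell with the PROTAC. Among genes chosen after their values were seen, ITGAM rose by 3.33 ± 0.16 and 3.21 ± 0.16, to 21.1 CPM with MDM2 shRNA, against 2.13 CPM with the non-targeting shRNA, while CD14 fell by 1.02 and 0.76. The pan-leukocyte gene PTPRC had at most 15 counts in any library of MDA-MB-436 and CD3E at most 4. In MDA-MB-231 the sums were 42.9 to 50.2 CPM with MDM2 shRNA and 40.5 to 46.5 CPM with the non-targeting shRNA, and 45.6 to 52.7 CPM with the PROTAC and 45.1 to 54.7 CPM with DMSO. PTPRC was at 3.33 CPM with MDM2 shRNA and 4.96 CPM with the non-targeting shRNA there, and CD3E had no counts. In MDA-MB-231, 2 of 6 tested leukocyte markers fell in each arm. Over 8 fibroblast markers the sum there was 43.1 to 44.4 CPM with MDM2 shRNA and 22.5 to 25.4 CPM with the non-targeting shRNA. With the PROTAC it was 39.5 to 44.7 CPM, and with DMSO 22.4 to 26.3 CPM. Of 5 tested fibroblast markers there, 2 rose with MDM2 shRNA, 3 rose with the PROTAC and 0 fell. In MDA-MB-436, 1 of 4 rose and 1 fell in each arm. The part of these markers in the cytokine changes was not tested. Of 7 tested epithelial markers in MDA-MB-436, 4 rose and 2 fell with MDM2 shRNA, and 2 rose and 2 fell with the PROTAC. Of 6 tested in MDA-MB-231, 1 fell with MDM2 shRNA, 2 fell with the PROTAC and 0 rose. In MDA-MB-436 KRT7 rose by 1.495 and 1.558 and EPCAM by 0.58 and 0.60 in the 2 arms. KRT19 (2.04) and CDH1 (3.48) rose with MDM2 shRNA, while their PROTAC changes of -0.33 and -2.28 did not pass. Both were rare, KRT19 at 0.863 CPM with MDM2 shRNA and 0.208 CPM with the non-targeting shRNA. CDH1 was at 0.251 and 0.0238 CPM in these groups, and at 0.489 CPM with DMSO. KRT8 and KRT18 fell in MDA-MB-436 by 1.02 and 0.81 with MDM2 shRNA and by 0.91 and 0.73 with the PROTAC, while KRT5 had no counts in MDA-MB-231.

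Likeness to a member was the root mean square distance of log2(CPM + 0.5) over the 8 groups, centred within each line. Genes most like a member were found for the 5 members with a mean of at least 1 CPM in both lines, among 11647 genes. For LIF, CAPN2 was at a distance of 0.03, and for IL1B they were MGST1 (0.04) and PARD6B (0.05). For IL6 they were AOC2 (0.07) and GBP2 (0.08), for IL11 PRRG4 (0.14) and HSPB8 (0.16), and for IL32 CCR10 (0.14) and IFFO1 (0.16). The IL1B neighbour MGST1 averaged 96.7 ± 6.39 CPM with MDM2 shRNA and 155 ± 9.20 CPM with the non-targeting shRNA in MDA-MB-436, and 55.7 ± 3.34 and 40.4 ± 7.08 CPM in the same groups of MDA-MB-231 (SD, n = 3). The distances describe 8 group means that share libraries and scaling, and were given no test. Adding 0.5 makes changes at low levels smaller, as for IL6, IL1B and IL32 in MDA-MB-231, and their distances depend on it.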

How the data were processed

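RNA was sequenced from 24 libraries, 3 in each of 8 groups. The deposited values are raw counts per Ensembl gene, 1 table per library, and all were whole numbers when tested. The tools named in the submitters' processing notes are cutadapt 2.4, HISAT2, StringTie and edgeR, and the build is GRCh38; which tool did what, and whether counting used strand, is not given in the sources used here. In the deposited counts, genes at exactly 4 counts were 1.2 to 1.64 times as many as the mean of the neighbouring values, so rare transcripts are less certain. Of 60675 identifiers, 56558 matched a gene name, with 99.83% of counts.

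The counts were tested with edgeR 4.0.16 (R 4.3.3) by the quasi-likelihood test after filterByExpr with a minimum count of 10 and TMM scaling. Each line was fitted over its 12 libraries, and differences between lines over all 24. Printed CPM use the TMM factors of the 24 libraries. Alternatives were DESeq2 1.42.0, limma 3.58.1 with voom, other scalings and filters, other sets of libraries, the replicate number as a block, and leaving out 1 library at a time. The methods were tested on simulated data. Deviations of same-numbered libraries from their group means did not correlate over 0.1 across all genes kept, a check that could miss pairing in few genes. A floor of 3 counts over a group was used for counts of 0.

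The members and lists were chosen with earlier results of these data known. Of each pathway list, up to 3 genes are named, those with the smallest adjusted p over the 4 treatment comparisons among genes called at least once. Individual marker genes were chosen after their values were seen. Of the genes most like a member, 1 is not reported here. Promoters (250 bases) come from RefSeq GRCh38.p14 and 3′ UTRs from GENCODE 29; LIF and CSF3 promoters are not printed.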

Additional observations from a re-analysis of the deposited data

Results flagged for a closer look

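Of the differences between lines, 6 were flagged because the test of the difference itself passed, as the change in MDA-MB-436 minus that in MDA-MB-231 on the log2 scale. They were IL1B at -1.26 with MDM2 shRNA and -0.98 with the PROTAC, IL32 at -1.37 with MDM2 shRNA (not passed in limma voom, adjusted p = 0.0978), IL11 at 0.4 with MDM2 shRNA and 0.48 with the PROTAC, and CSF2 at 2.37 with the PROTAC. IL1B fell in MDA-MB-436, while its changes in MDA-MB-231 were positive at about 1 CPM and did not pass. IL32 rose in both lines, on a level of 192 to 214 CPM in non-targeting libraries of MDA-MB-436 and 0.516 to 0.777 CPM in those of MDA-MB-231. DMSO libraries of MDA-MB-231 held more IL32, at 1.00 to 1.60 CPM, without overlap with the non-targeting libraries.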

How the results depend on the processing

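Of the settings other than leaving out a library, 470 values kept their direction and their side of the threshold, 9 were no longer past it, 10 came to pass it and 1 turned. With 1 library left out these numbers were 377, 22, 3 and 6. Calls of LIF, IL11 and IL32 in all 4 comparisons, and of IL6 and IL1B in MDA-MB-436, held under every alternative run. The members called for the line difference with MDM2 shRNA were 2 (IL1B and IL32) with the replicate block and 2 to 3 with 1 library left out, and with the PROTAC they were 5 in DESeq2. Only values that never passed turned direction. These were CSF3 in MDA-MB-231, which ran from -0.83 to 0.21 with MDM2 shRNA (also 0.19) and from -0.43 to 0.11 with the PROTAC when 1 library was left out, and IL24 with the PROTAC in MDA-MB-436, at 0.36 in limma voom and from -0.74 to 0.31 (also 0.18 and 0.25) with 1 library left out. The cause was not tested.

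One fit of all 24 libraries moved calls at low levels. CSF2 in MDA-MB-231 had an adjusted p of 0.0552 with MDM2 shRNA and 0.209 with the PROTAC in it, IL24 there 0.0694 and CSF3 with MDM2 shRNA in MDA-MB-436 0.319, while in MDA-MB-231 IL6 passed at 0.0315 and 0.0343, IL1B at 0.00966 and 0.0366 and IL1A with MDM2 shRNA at 0.0291. The replicate block moved IL1B with MDM2 shRNA in MDA-MB-231 to an adjusted p of 0.0436 and the IL11 line difference to 0.0566. Of 12 same-numbered pairs, 0 correlated over 0.1 (-0.054 to 0.064), taken over all genes kept. A pairing that touches few genes would not be seen this way. With counts divided by 4, CSF2 and TNF stayed called in both arms of MDA-MB-436. IL24 there had at most 0.405 CPM, and the intervals of its changes are wide.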
